A study of Mus musculus with 42 samples.

Results

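The 2 genes described here, Npy and Agrp, encode the hunger peptides of the hypothalamus. They were taken by symbol from the 37907 genes of a table of RPKM values, that is, reads scaled to the length of the gene and the size of the library. The series holds 42 RNA-seq libraries from 4 nuclei of the hypothalamus, cut out of brain sections by laser-capture microdissection. All mice were adult males of the C57/BL6 strain and wild-type, and food had been either freely available or withheld for 24 hours before dissection (ad libitum fed and fasted). Libraries numbered 5 fed and 5 fasted for the arcuate nucleus (ARC), 6 and 6 for the ventromedial nucleus (VMH), 5 and 4 for the dorsomedial nucleus (DMH), and 6 and 5 for the paraventricular nucleus (PVN). No mouse carried a transgene or a deletion in the groups used here. The comparison of fed with fasted mice asks how each nucleus answers food deprivation, and the comparison of nuclei asks where the peptides are made.

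Neuropeptide Y, the product of Npy, is a secreted peptide that drives feeding through G protein–coupled receptors and is made in many parts of the brain. Agouti-related peptide, the product of Agrp, blocks the melanocortin receptors that POMC-derived peptides activate, and in the brain it is made almost wholly by one population of ARC neurons, which make neuropeptide Y and GABA as well. Leptin and insulin restrain these neurons, ghrelin excites them, and in the fed state they are largely quiet.

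Npy (ENSMUSG00000029819) lies on the forward strand of mouse chromosome 6 at 49822710 to 49829507 (GRCm38), with 4 exons of 566 bases, of which 291 are coding. None of its exon bases overlap another gene. Agrp (ENSMUSG00000005705) lies on the reverse strand of chromosome 8 at 105566698 to 105637393. Its RPKM values rested on a length of 659 bases, close to the 661 bases of the shortest annotated transcript, which has 5 exons at 105566698 to 105568298 and shares 0 exon bases with other genes. Longer Agrp transcripts reach an upstream exon that overlaps Ctcf and Gm5914 over 114 bases. The kit does not mark strand, so reads in that exon could not be assigned to one gene.

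The 250 bases before the start of Npy, at chr6:49822460-49822709 on the forward strand (RefSeq, GRCm38.p6), are shown because this gene was higher after fasting in the ARC. Capitals would mark a motif match, and there was none.

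Npy promoter: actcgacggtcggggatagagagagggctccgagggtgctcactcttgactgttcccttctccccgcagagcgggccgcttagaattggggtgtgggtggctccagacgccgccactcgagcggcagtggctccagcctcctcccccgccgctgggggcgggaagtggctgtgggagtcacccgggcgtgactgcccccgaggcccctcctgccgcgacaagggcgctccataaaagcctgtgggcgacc

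G and C made up 69.2% of these bases, against a median of 52.4% over the same stretch of 32851 promoters. Both strands were searched for 7 motifs, the TATA box of the core promoter and 6 elements bound by transcription factors. None of the letters occurred in this stretch, which says nothing of whether the factors bind there. The TATA box TATAAA was held by 12.4% of all promoters, the forkhead element GTAAACA by 3.17%, the STAT element TTCNNNGAA by 7.02% and the half-site TGACG of the cAMP response element by 17.8%. The E-box CACGTG was held by 6.02%, the homeobox core TAATTA by 4.84% and the glucocorticoid half-site AGAACA by 16.1%. Agrp was not analysed for motifs here.

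The deposited RPKM values were shaped by steps that matter most for low values. No value in the table was 0, and the pattern of the lowest values showed that a count averaging 5 reads had been added to every gene and that the means of 3 sets of libraries, called batches here, had been set equal. A gene with no read was therefore listed at a floor, which was 1.93 RPKM on average for Npy and 1.66 RPKM for Agrp. Whole reads could be computed back from the values for 36049 genes (95.1%), both members included, and totalled 1063151 to 10680737 per library. For part of the values near the floor, reads are given beside RPKM, singly or as the range over the libraries outside the ARC. Each of the 25 markers matched for the 4 nuclei had its highest mean RPKM in the nucleus it is named for. The lists were chosen with earlier results of these data known, so this is no independent check of the dissection. Some margins were small, such as that of Nfib, at 4.54 RPKM in the DMH and 3.57 RPKM in the VMH. In such bulk tissue, fewer cells of a type and less RNA per cell cannot be told apart.

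In the fed ARC both peptides were among the most abundant messages. Npy read 314, 359, 453, 284 and 317 RPKM in the 5 fed libraries, a mean of 345 ± 65.8 (SD, n = 5). Agrp read 179, 157, 110, 116 and 105 RPKM, a mean of 133 ± 32.9 (SD, n = 5). By mean RPKM, Npy ranked 54th and Agrp 242nd of 37907 genes in the fed ARC. In the fasted ARC they ranked 13th and 43rd.

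After a 24-hour fast both peptides were higher in every ARC library than in any fed one. Npy read 1104, 603, 591, 1428 and 841 RPKM in the 5 fasted libraries, a mean of 913 ± 356 (SD, n = 5) and 2.64-fold the fed mean. The lowest fasted library stood 1.30-fold above the highest fed library, so the groups did not overlap. Agrp read 351, 403, 341, 597 and 351 RPKM, a mean of 409 ± 108 (SD, n = 5) and 3.07-fold the fed mean. Its lowest fasted library stood 1.9-fold above the highest fed one. For each gene the exact two-sided permutation test over the 10 libraries gave p = 0.00794, the smallest that 5 against 5 allows. Of all 33579 genes tested, 0.408% likewise had every fasted ARC library above every fed one.

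**Figure D1:**
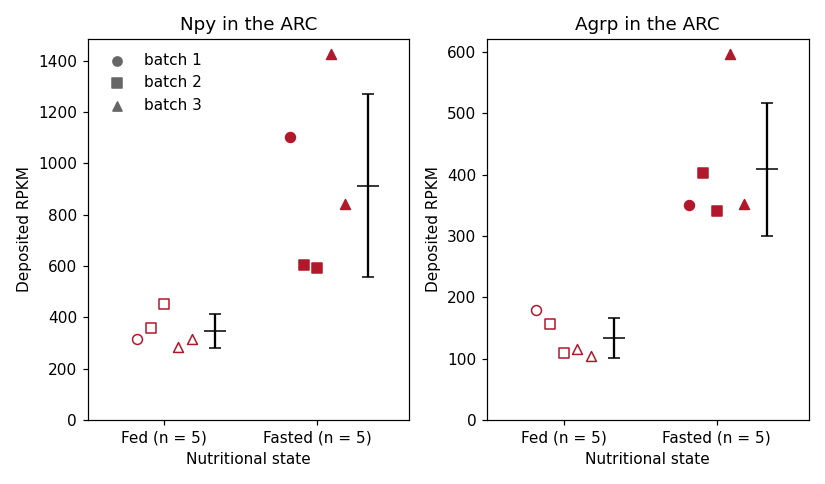
Npy (left) and Agrp (right) in the ARC. Each point is 1 library in deposited RPKM, open for fed and filled for fasted mice, with the marker shape giving the batch and the black bar the mean ± SD (n = 5). All fasted points lie above all fed points for both genes, and the fasted Npy values spread from 591 to 1428.

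The read counts behind these values were large. Fed ARC libraries held 661 to 1179 Npy reads and 311 to 487 Agrp reads, and fasted ones 1391 to 4183 and 1003 to 2048. Counting error at such numbers averaged 2.05% to 5.15% of a value, well under the spread between libraries. Scaled to library size alone (RPM), Npy was 199 ± 46.9 fed and 518 ± 188 fasted (SD, n = 5 each). Agrp was 87.0 ± 20.2 fed and 270 ± 73.6 fasted (SD, n = 5 each).

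The fit across all genes placed the fasting change of Agrp, and not that of Npy, past the threshold of an adjusted p of 0.1. On the scale of log2(RPKM + 1), limma gave Agrp a change of 1.61 (SE 0.33) with an adjusted p of 0.0613 (rank 13 by p among 33579 genes). For Npy the log2 difference was 1.33 (SE 0.44), with an adjusted p of 0.464 in limma (rank 334). The Agrp call was lost in limma with a pseudocount of 0.1 (adjusted p = 0.218), with the ARC fitted alone (0.28) and with the replicate number as a block (0.408), at log2 changes of 1.61 to 1.62. Thus 1 of the 2 members was called, where 0.0566% of all genes tested were. This fit uses 1 spread per gene over all 8 groups. The spread of Npy on this scale in the other nuclei, where its counts were low, enters it. With the ARC fitted alone, the SE of Npy was 0.27 and its adjusted p was 0.59 in limma. The reason Npy did not pass was not tested.

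On the recovered reads both members passed. There, limma voom, which gives a value less weight the fewer reads it rests on, with batch as a covariate, put Agrp first and Npy second of 15718 genes. The log2 change was 1.57 (SE 0.20) for Agrp, with an adjusted p of 5.2e-06, and 1.33 (SE 0.19) for Npy, with an adjusted p of 5.25e-05. In this fit 0.127% of genes were called in the ARC. The log2 change of each gene differed between the fits by less than its SE.

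Single libraries bore on these calls. Leaving out 1 ARC library at a time kept the log2 change of Agrp between 1.46 and 1.72 on log2(RPKM + 1), but its adjusted p rose above the threshold in 6 of 10 such fits. Those were the fits without fasted library 1 or 4 or without fed library 2, 3, 4 or 5, with adjusted p up to 0.15. On recovered reads Agrp passed in all 10 fits (largest adjusted p = 0.00609). Npy passed in 9 of 10, and the exception was the fit without fasted library 1, with a log2 change of 1.22 and an adjusted p of 0.226.

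Both peptides were higher in the fasted ARC within each of the 3 batches, by unequal amounts. Batch 1 holds 1 fed and 1 fasted ARC library, and batches 2 and 3 hold 2 of each. The log2 change of Npy within them was 1.81, 0.56 and 1.87, and that of Agrp was 0.96, 1.49 and 2.05. The lower fasted Npy values of 603 and 591 RPKM both came from batch 2, and the fed value of 453 did too. No test was made of the difference between batches.

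The proportion of Agrp to Npy overlapped between the fed and the fasted ARC. The ratio of Agrp to Npy RPKM, a comparison of levels per length, was 0.570, 0.437, 0.242, 0.407 and 0.331 in the fed libraries. In the fasted libraries it was 0.318, 0.669, 0.578, 0.418 and 0.418, and the groups overlapped. The log2 ratio was 0.27 higher after fasting (exact two-sided permutation test, p = 0.397), so a difference was not shown at this sample size. It was 0.11 without fed library 3, 0.14 without fasted library 2 and 0.42 without fed library 1. Within batches the 2 changes differed in both directions, since that of Agrp was the smaller in batch 1 and the larger in batches 2 and 3. In every ARC library Npy was the more abundant of the pair per length.

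Outside the ARC both peptides were scarce. The other 32 libraries held 661 Npy reads in all, against 18254 in the 10 ARC libraries, and 220 Agrp reads against 9021. Npy ranged from 3.20 to 41.5 RPKM there (1 to 119 reads, median 13). Agrp ranged from 1.95 to 12.1 RPKM (1 to 33 reads, median 3.5), and 16 of the 32 libraries held 3 or fewer Agrp reads. Much of a deposited Agrp value outside the ARC was therefore the floor itself, and fold changes there understate differences in reads.

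**Figure D2:**
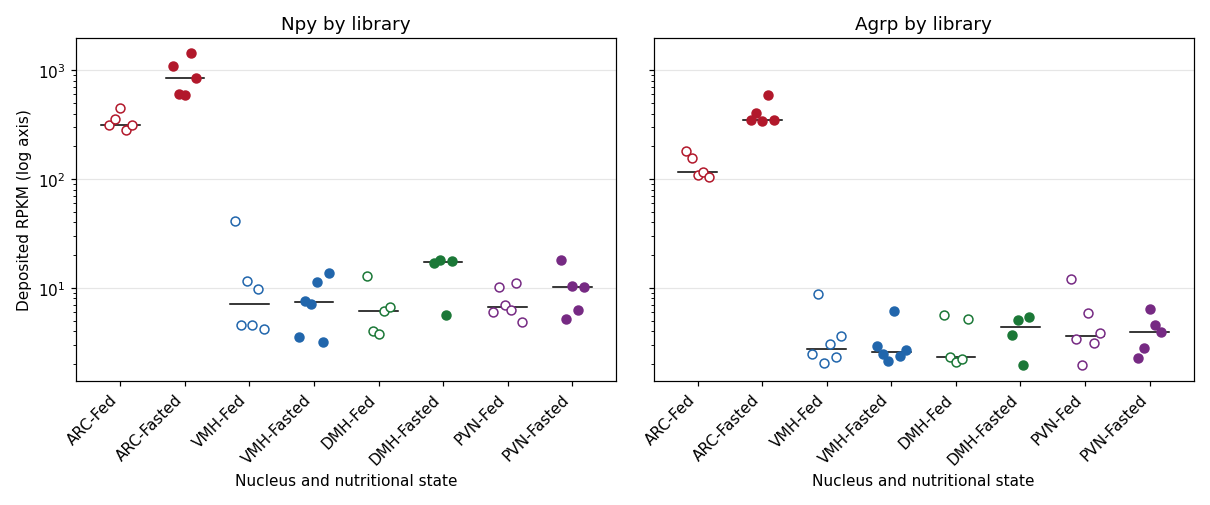
Deposited RPKM (log axis) of Npy (left) and Agrp (right) in each of the 42 libraries, by nucleus and nutritional state, open for fed and filled for fasted mice, with a line at the group median. Every ARC point lies above 100 RPKM, and every other point lies at or below 41.5 RPKM for Npy and 12.1 RPKM for Agrp.

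Both members were higher in the ARC than in each other nucleus, in either state, with no overlap in any of the 6 comparisons. Of all genes tested, 2.01%, 1.55% and 1.36% likewise had every fed ARC library above every fed VMH, DMH and PVN library, and 2.35%, 1.96% and 1.66% had so in fasted mice. In fed mice the log2 difference on log2(RPKM + 1) was 5.12 (SE 0.42) against the VMH, 5.59 (SE 0.44) against the DMH and 5.38 (SE 0.42) against the PVN for Npy. For Agrp it was 4.93 (SE 0.32), 4.96 (SE 0.33) and 4.62 (SE 0.32). In limma all 6 passed, with adjusted p from 6.43e-14 to 3.48e-11, where 3.83%, 1.33% and 1.91% of genes tested were called higher in the fed ARC than in the fed VMH, DMH and PVN.

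In fasted mice both members again passed against each nucleus. The log2 differences were 6.77 (SE 0.42), 5.91 (SE 0.47) and 6.40 (SE 0.44) for Npy against the VMH, DMH and PVN, and 6.67 (SE 0.32), 6.38 (SE 0.35) and 6.39 (SE 0.33) for Agrp. The adjusted p from limma was between 3.31e-17 and 3.97e-11, where 4.64%, 1.3% and 1.99% of genes were called higher. From reads alone the fold was larger, since no count is added. The mean Npy level per length in the fed ARC was 33.8-fold that of the fed VMH, 75.3-fold that of the fed DMH and 63.1-fold that of the fed PVN, and Agrp was 65.4-fold, 72.1-fold and 39.5-fold. Single libraries moved these folds: without fed VMH library 1 that of Npy over the VMH was 68.4, without fed VMH library 2 that of Agrp was 127, and without fed PVN library 1 that of Agrp over the PVN was 66. The study's methods describe dissecting all 4 nuclei from the serial sections of a brain, the labels do not say which libraries share one, and the tests between nuclei take no account of it.

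The order of the groups was read from levels per length recomputed from reads. For Npy the fasted ARC (915 ± 333) came before the fed ARC (351 ± 82.9), followed by the fasted DMH (13.3 ± 6.45, n = 4), fed VMH (10.4 ± 13.3, n = 6), fasted PVN (8.09 ± 4.56, n = 5), fasted VMH (5.94 ± 4.43, n = 6), fed PVN (5.56 ± 2.36, n = 6) and fed DMH (4.66 ± 3.16, n = 5). For Agrp the fasted ARC (410 ± 112) and fed ARC (132 ± 30.7) were followed by the fed PVN (3.34 ± 3.55) and fasted DMH (2.40 ± 1.57). The fasted PVN (2.35 ± 1.68), fed VMH (2.02 ± 2.46), fed DMH (1.83 ± 1.73) and fasted VMH (1.46 ± 1.56) came last (SD, same n). The order outside the ARC rested on single libraries. The fed VMH mean was 5.13 for Npy without library 1 and 1.04 for Agrp without library 2, and the fed PVN mean of Agrp was 2.0 without library 1. Only the ARC groups stood apart from their neighbours: among the 6 groups outside the ARC, all 15 pairs overlapped for either gene.

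In the VMH neither peptide was called, in limma (0.131% of genes called) or on recovered reads (0.00636%). Fed libraries ran from 4.20 to 41.5 RPKM for Npy (median 7.15) and fasted ones from 3.20 to 13.8 (median 7.36). The log2 change was -0.32 (95% interval -1.13 to 0.50), and it was 0.11 without fed library 1, which held 42 Npy reads. Agrp ran from 2.03 to 8.82 RPKM fed (median 2.76) and 2.11 to 6.17 fasted (median 2.59), with a log2 change of -0.13 (95% interval -0.74 to 0.49, and -1.97 to 1.40 on recovered reads).

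Fed VMH library 1 had many Npy reads and almost no Agrp. It held 42 Npy reads, 1 Agrp read and 33 Pomc reads, while fed VMH library 2 held 4 Npy reads, 14 Agrp reads and 79 Pomc reads. The markers of the ARC without Pomc summed to 18.8 RPKM in library 1 and 12.3 RPKM in library 2. They summed to 6.57 to 18.7 RPKM in the other fed VMH libraries and 451 to 769 RPKM in the ARC libraries. Fasted VMH library 1, with 1 Npy read and 1 Agrp read, had a sum of 26.6 RPKM. The part of ARC tissue in these values was not tested.

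In the DMH, Npy was higher in 3 of 4 fasted libraries than in any fed one, but the test did not pass. Npy read 12.7, 4.0, 3.73, 6.10 and 6.70 RPKM in the fed libraries (20, 6, 4, 12 and 8 reads) and 17, 18.1, 5.60 and 17.7 RPKM in the fasted ones (61, 48, 10 and 119 reads). Fasted library 3 lay among the fed libraries, so the groups overlapped. The log2 difference was 1.02 (SE 0.47, 95% interval 0.07 to 1.97), with an adjusted p of 0.762 in limma, which called 0.0238% of genes in the DMH. On recovered reads the log2 difference was 1.61 (SE 0.77), and the adjusted p of 0.999 did not pass either, where 0.0509% of genes were called. The exact two-sided permutation test gave p = 0.0635, where 5 against 4 can reach 0.0159.

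Other values moved with this difference. The fasted DMH libraries were deeper, with an effective depth, scaled from the added counts, of 7379428 ± 4003881 reads (SD, n = 4) against 3908556 ± 862424 (SD, n = 5; exact two-sided permutation test, p = 0.0476), and batch 1 held no fasted DMH library. Within batches 2 and 3 the log2 change of Npy was 1.93 and 0.59. The 7 ARC markers, Pomc among them, summed to 91.5 to 181 RPKM in fed and 79.1 to 124 RPKM in fasted DMH libraries. Most of this sum was Ghrh and Tac2, which averaged 59.7 and 45.5 RPKM over the DMH libraries. Fed library 1, with the most Npy of the fed group, also had the highest sum. Fasted library 3, with the least Npy of the fasted group (5.60 RPKM), had the highest sum of that group. Crabp1, at 210 RPKM in the fed ARC, read 2.65 to 5.42 RPKM in fed and 2.02 to 12.3 RPKM in fasted DMH libraries. The part of ARC tissue in the Npy difference was not tested. Agrp read 5.66, 2.29, 2.07, 2.23 and 5.20 RPKM in the fed DMH and 3.66, 5.01, 1.95 and 5.36 RPKM in the fasted DMH. Its log2 change was 0.18 (95% interval -0.53 to 0.89, and -1.09 to 2.23 on recovered reads).

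In the PVN, where axons of the ARC neurons release both peptides, neither message was called, in limma (0.0715% of genes called) or on recovered reads (0.14%). Npy ran from 4.8 to 11 RPKM (median 6.60) in the 6 fed libraries and read 18.2, 5.22, 10.5, 6.20 and 10.2 RPKM in the fasted ones. The log2 change was 0.31 (95% interval -0.55 to 1.16). Agrp ran from 1.97 to 12.1 RPKM fed (median 3.61) and read 2.24, 2.79, 6.38, 4.55 and 3.90 RPKM fasted, a log2 change of -0.16 (95% interval -0.81 to 0.48, and -1.72 to 1.31 on recovered reads). Fed library 1 held the 12.1 RPKM of Agrp (29 reads) but 9 Npy reads, and the change was 0.094 without it. ARC markers without Pomc summed to 69.9 RPKM in this library, 55.8 RPKM of it Ghrh. That was the highest sum of the fed PVN, where the next was 43.5 RPKM. Fasted PVN library 1 had a higher sum, 85.2 RPKM, with 1 Agrp read and 25 Npy reads. How much ARC tissue these values hold was not tested.

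**Figure D3:**
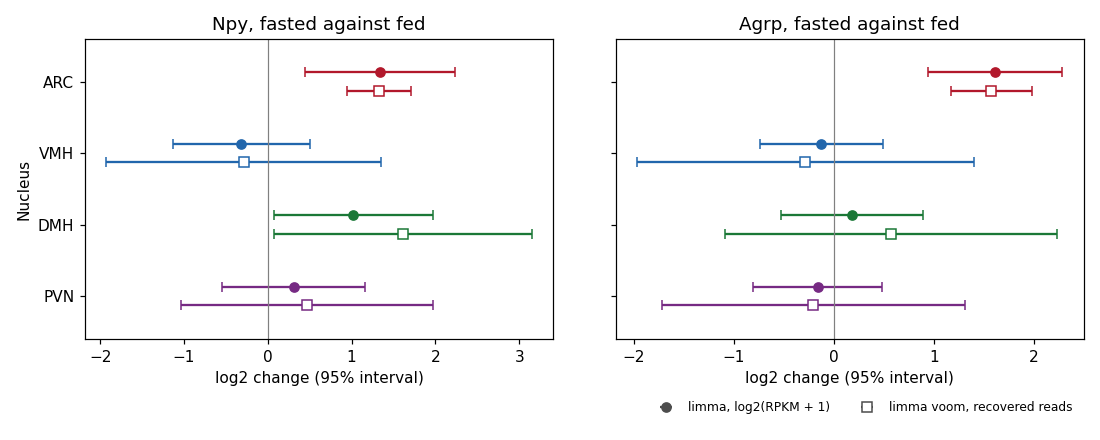
log2 change of Npy (left) and Agrp (right), fasted against fed, in each nucleus, with 95% intervals. Filled circles are limma on log2(RPKM + 1) and open squares limma voom on recovered reads. The intervals of the ARC lie above 0 in both fits, the DMH interval of Npy starts at 0.07 in both, and the other intervals span 0.

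Whether the ARC changed more than the other nuclei was tested directly. The change of Agrp in the ARC exceeded the mean change of the other nuclei by 1.64 on the log2 scale (95% interval 0.87 to 2.42; SE 0.38), with an adjusted p of 0.435 in limma. For Npy the excess was 1.0 (95% interval -0.03 to 2.02; SE 0.51), with an adjusted p of 0.927 in limma. On recovered reads the excess of Agrp was 1.55 (95% interval 0.53 to 2.57), with an adjusted p of 0.908 in limma voom. That of Npy was 0.74 (95% interval -0.24 to 1.71), with an adjusted p of 0.995 in limma voom. Of all genes tested, 0% of 33579 passed this test in limma and 0% of 15718 on recovered reads. With a pseudocount of 5 in place of 1, Agrp passed this test (excess 1.61, adjusted p = 0.00133 in limma), and Npy did not.

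**Figure D4:**
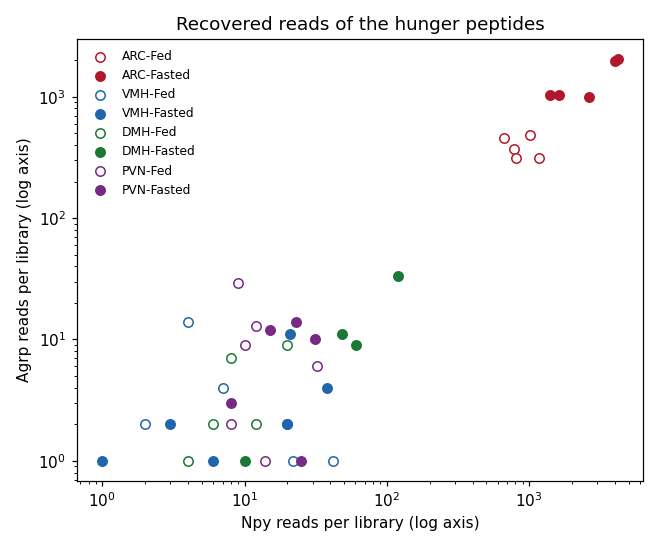
Recovered Agrp reads against Npy reads (both log axes), 1 point per library, coloured by nucleus, open for fed and filled for fasted mice. The ARC libraries lie at 661 to 4183 Npy reads and 311 to 2048 Agrp reads, and the other libraries at 1 to 119 and 1 to 33.

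Pooled over libraries, the proportion of the pair outside the ARC was uneven, and single libraries held much of the reads. Of the reads of both genes, Agrp made up 30.4% (exact 95% interval 29.3 to 31.5) in the fed and 33.9% (33.3 to 34.5) in the fasted ARC. It was 19.8% (13.1 to 28.1) and 19.1% (12.2 to 27.7) in the fed and fasted VMH, 29.6% (19.3 to 41.6) and 18.5% (14.2 to 23.4) in the DMH, and 41.4% (33.3 to 49.8) and 28.2% (20.9 to 36.3) in the PVN. These intervals are binomial, pool the libraries of a group and cover counting error only. Fed PVN library 1 held 29 of the 60 Agrp reads of its group. Fasted DMH library 4 held 33 of 54 Agrp reads and 119 of 238 Npy reads of its group. Differences between the pooled shares were not tested. Over single libraries the ratio of Agrp to Npy, per length and from reads, ran from 0.228 to 0.636 in the ARC but from 0.0204 to 3.01 in the fed VMH.

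Among the other genes of this system, 55 of 57 listed genes were tested, and only the leptin receptor passed the adjusted threshold in the ARC on log2(RPKM + 1). Lepr rose from 3.18 ± 0.321 to 9.09 ± 3.10 RPKM (SD, n = 5 each), a log2 change of 1.22 (SE 0.17) with an adjusted p of 0.000651 in limma. The groups did not overlap, with a fed maximum of 3.51 and a fasted minimum of 5.80 RPKM. Thus 1 gene rose and 0 fell, where 0.0566% of all genes were called in either direction. At an unadjusted p under 0.05 there were 14 of the 55 genes in limma and 16 of 49 on recovered reads in the ARC, where 7.5% and 7.33% of all genes tested were. The median log2 change over the list was 0.0093, and over all genes it was 0. In the VMH, DMH and PVN 0 of the 55 genes passed in limma (8, 4 and 8 had an unadjusted p under 0.05), and 0 of 49 passed on recovered reads (2, 6 and 9 had an unadjusted p under 0.05).

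Pomc, the gene of the precursor of the melanocortins that AgRP opposes, was lower in the fasted ARC on recovered reads and was not called on log2(RPKM + 1). It averaged 518 ± 79.2 RPKM fed and 365 ± 70.7 RPKM fasted (SD, n = 5 each), a log2 difference of -0.51 (SE 0.30) with an adjusted p of 0.770 in limma. On recovered reads the log2 change of Pomc was -0.54 (SE 0.12), with an adjusted p of 0.0388 in limma voom. Of this list of 5 ligands, 4 were tested and 0 passed on log2(RPKM + 1). Pyy and Ppy, the close relatives of Npy, had a median of 0 reads in every fed group.

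Of the receptors of hormones that act on these neurons, 8 were tested, and Lepr alone passed. Ghsr, the ghrelin receptor, averaged 6.35 ± 1.85 RPKM fed and 14 ± 3.81 RPKM fasted (SD, n = 5 each). Its log2 difference was 1.02 (SE 0.27), with an adjusted p of 0.263 in limma and 0.215 on recovered reads, so it was not called. Insr, the insulin receptor, averaged 11.9 ± 2.36 RPKM fed and 17.3 ± 4.73 RPKM fasted (SD, n = 5 each), with an adjusted p of 0.529 in limma.

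None of the receptors through which the peptides act was called in the ARC, where 4 NPY receptors and 6 melanocortin receptors and partners of AgRP were tested. The NPY receptors had a median log2 change of -0.50. Npy1r averaged 37.6 ± 5.30 RPKM fed and 26.9 ± 2.74 RPKM fasted (SD, n = 5 each; log2 difference -0.46, adjusted p = 0.748 in limma). Npy2r, the receptor by which NPY neurons sense their own peptide, averaged 36.1 ± 9.68 and 23.9 ± 7.10 RPKM (adjusted p = 0.734 in limma). The exact two-sided permutation test, unadjusted, gave p = 0.00794 for Npy1r, the smallest that 5 against 5 allows, and p = 0.0714 for Npy2r. Among the listed genes, Lepr, Foxo1 and Acvr1c, all higher in the fasted ARC, gave the same p in this test. The share of all genes as low as this in the fasted ARC was not computed, so the Npy1r value is a description. The melanocortin receptor Mc4r averaged 4.0 ± 2.60 RPKM in the fed PVN (n = 6) and 1.98 ± 1.45 RPKM in the fed ARC (n = 5), and Mc3r averaged 10.9 ± 2.70 RPKM in the fed ARC.

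The remaining lists gave no call in the ARC. They held 12 transcription factors linked to the pair (median log2 change 0.077), 10 genes of neuropeptide processing (0.17), 3 GABA genes (-0.12) and 8 genes enriched in Agrp neurons (-0.016). All of them were tested. In each of 10 fits that left out 1 ARC library, the number of listed genes called in the ARC was 1.

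**Figure D5:**
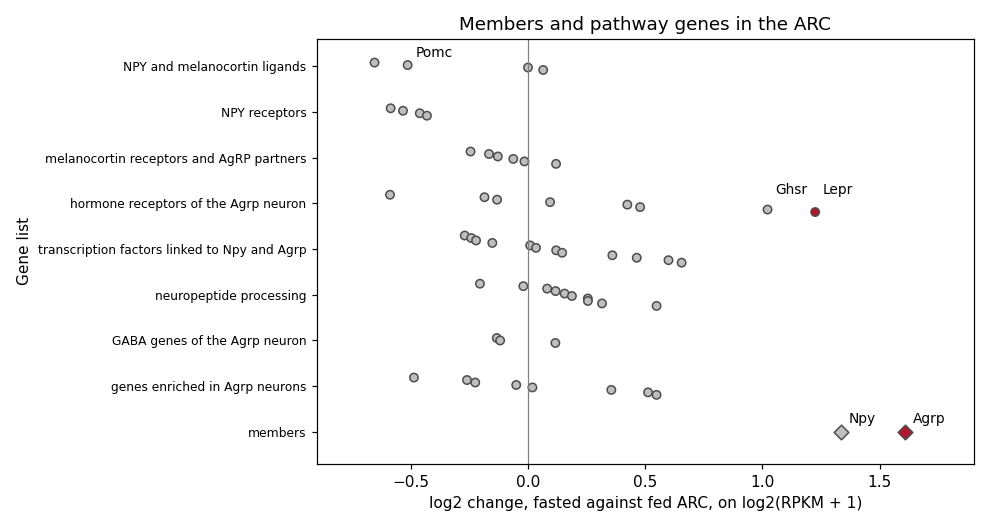
log2 change, fasted against fed ARC, on log2(RPKM + 1), of each tested gene of the 8 lists (circles) and of Npy and Agrp (diamonds). Red marks an adjusted p under 0.1 in limma. Lepr (1.22) and Agrp (1.61) are red, and Npy (1.33) and Ghsr (1.02) lie far to the right without passing.

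Other genes had a pattern over the 42 libraries close to that of the pair. By Pearson correlation of log2(RPKM + 1) among 27717 genes with a symbol, the genes most like Npy were Crabp1 (0.95), Agrp (0.95), Tbx3 (0.94), Six6 (0.93) and Rxfp1 (0.92). Those most like Agrp were Crabp1 (0.96), Tbx3 (0.96), Npy (0.95), Lrrc9 (0.94) and Slc6a3 (0.93). The libraries share nuclei and batches, so these correlations are descriptions.

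Crabp1 and Tbx3, on both of these lists, had close levels in the fed and the fasted ARC. Crabp1, a retinoid-binding protein, averaged 210 ± 32.6 RPKM in the fed and 250 ± 36.4 RPKM in the fasted ARC (SD, n = 5 each). Tbx3, a transcription factor of ARC neurons, averaged 31.1 ± 6.02 and 35.2 ± 6.70 RPKM. The highest mean of Crabp1 in a group outside the ARC was 5.84 RPKM, and that of Tbx3 was 1.80 RPKM.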

How the data were processed

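Groups were taken from the sample titles, and Npy, Agrp and the gene lists were chosen with earlier results of these data known. Per the labels, RNA from laser-captured nuclei was amplified with a NuGEN kit, and the submitters' processing notes name CASAVA 1.7, TopHat2 2.0.11, Cufflinks 2.2.1, edgeR, limma and GRCm38. The authors deposited RPKM values, after removing outlier samples. The study's methods give laser capture and library preparation in 3 batches, but no source used here says which library fell in which, and the 3 sets called batches here were read from the values, as were the removal of their means and an added count averaging 5 reads (1.46 to 14.5 per library). The means of a gene in the 3 batches differed by at most 1.29e-06 on the log2 scale (median 7.8e-08). Folds without single libraries were added after seeing the data. Reads counted as whole within 0.02. Of the low values per library, 98.1% to 99.1% came out whole.

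Deposited RPKM values were tested as log2(RPKM + 1) with limma 3.58.1 (R 4.3.3) on 8 group means, with an intensity trend, over 33579 genes at 1 RPKM or more in at least 4 libraries, and Benjamini-Hochberg adjusted over all of them. The threshold was 0.1. Single genes were also tested by exact two-sided permutation (SciPy 1.17.1). The voom fit on recovered reads, with at least 10 reads in at least 4 libraries, was chosen after seeing the data. Named genes were the pair, listed genes past the threshold, Pomc, Lepr, Ghsr and the 5 genes most correlated with each member. Insr, Npy1r, Npy2r, Mc3r and Mc4r, Pyy and Ppy, and Foxo1 and Acvr1c were named after their values were seen. Scripts were tested on simulated data. The study's methods describe the replicates of a nucleus as biological replicates from separate mice, which the labels do not identify. No 2 libraries were identical.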

Additional observations from a re-analysis of the deposited data

Results flagged for a closer look

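The 2 members, Pomc, Lepr and Ghsr in 8 groups gave 40 groups of 4 to 6 libraries. In these, 6 RPKM values lay far from the rest of their group by Dixon's criterion at the 95% level. Chance meets it in about 1 of 20 groups of normally distributed values. RPKM values resting on few reads need not be so distributed, so chance may meet it more often here. Npy was 41.5 RPKM (42 reads) in fed VMH library 1, against 4.20 to 11.5 in the other libraries of the group. Npy was 5.60 RPKM (10 reads) in fasted DMH library 3, against 17 to 18.1. Agrp was 597 RPKM (1962 reads) in fasted ARC library 4, against 341 to 403, and the same library held the highest Npy value, 1428 RPKM. Agrp was 8.82 RPKM (14 reads) in fed VMH library 2, against 2.03 to 3.58, and 6.17 RPKM (11 reads) in fasted VMH library 4, against 2.11 to 2.89. Ghsr was 7.54 RPKM (85 reads) in fed PVN library 1, against 0.685 to 2.29, and that library also held the highest Agrp value outside the ARC.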

How the results depend on the processing

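All 12 differences between the ARC and another nucleus passed under every alternative run. The log2 change of Npy in the ARC was 1.33 in the fit on recovered reads, the only alternative that called it, and its adjusted p over the others ran from 0.192 to 0.81. For Agrp the call in the ARC was lost with a pseudocount of 0.1 (log2 change 1.62, adjusted p = 0.218), with a fit of the ARC alone (1.61, adjusted p = 0.28) and with the replicate number as a block (1.61, adjusted p = 0.408). It held under the other 9 alternatives, all in limma. With a pseudocount of 5, Agrp passed in the test of the ARC against the other nuclei (1.61, adjusted p = 0.00133). The number of listed genes called in the ARC was 3 with a pseudocount of 5, 0 with the ARC alone and 2 on recovered reads, against 1. Over all genes, 19 were called in the ARC, and the number was 8 with a pseudocount of 0.1, 40 with array weights, 3 with the replicate block and 0 with the ARC alone, where limma gave 1518 genes an unadjusted p under 0.05. The Agrp change in the PVN turned to 0.026 with array weights. The cause was not tested.

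Without 1 library at a time, the log2 change of Agrp in the ARC ran from 1.46 to 1.72, and that of Npy on recovered reads from 1.20 to 1.51. The uncalled changes ran from -0.50 to 0.11 for Npy in the VMH, from -0.30 to 0.11 for Agrp in the VMH, from -0.33 to 0.094 for Agrp in the PVN, from 0.079 to 0.48 for Npy in the PVN (lowest without fasted library 1) and from 0.044 to 0.41 for Agrp in the DMH (lowest without fasted library 4). The log2 change of the Agrp to Npy ratio in the ARC ran from 0.11 to 0.42.

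Libraries share replicate numbers, but these cannot be taken to mark a mouse. A brain was taken either fed or fasted, so same-numbered fed and fasted libraries come from different mice. Across nuclei, some same-numbered libraries lay in different batches, such as fasted ARC library 1 in batch 1 and fasted DMH library 1 in batch 2. The correlations below therefore cannot decide which libraries share a mouse. The deviations of same-numbered fed and fasted libraries of a nucleus from their group means correlated by -0.12 to 0.054, and those of different nuclei in a state by -0.13 to 0.065. The replicate block, which groups libraries by these numbers only, changed no call of the pair other than that of Agrp in the ARC. Outside the ARC the median library held 3.5 Agrp reads, and a change there within the wider intervals on recovered reads was not detectable at this depth.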
